A study of Mus musculus with 19 samples.

Results

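The response of cultured mouse hippocampal neurons to 6 h with NVP-AAM077 (NVP), an NMDA receptor antagonist, was weak in these data. It was read from 9 of the 19 arrays of the series, the 4 titled NVP and the 5 of the vehicle group, which were chosen by their titles alone. Every group held dissociated mouse hippocampal neurons kept for 21 days in culture in multiwell plates, with no strain, genotype or age of the animals given. The groups were treated for 6 h with vehicle, 100 nM NVP, 100 µM AP5 (5 arrays) or 1 µM of the compound that the titles call Ro25 (5 arrays), whose identity is open because the labels give it an unfamiliar number. Doses were therefore not matched, and no inactive compound was included. Each array was a two-colour Agilent mouse array that carried the neuron RNA in red and 1 commercial universal mouse reference RNA in green. The measured quantity is the log2 ratio of red over green for each gene, so a value of 0 is the level of the reference and 1 unit is a doubling. The labels do not say that replicates came from separate cultures, and the p-values below then reflect array-to-array spread, part of which can be technical.

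NMDA receptors are glutamate-gated channels that let calcium into the neuron when the cell is already depolarised. Each receptor joins obligatory GluN1 subunits (gene Grin1) with GluN2 subunits such as GluN2A (Grin2a) and GluN2B (Grin2b). NVP competes with glutamate and prefers receptors that contain GluN2A, although the preference is modest, whereas AP5 blocks NMDA receptors of all GluN2 types. Calcium that enters through these receptors drives the kinases and the transcription factors CREB and MEF2 that switch on activity-dependent genes, among them Bdnf, Fos, Arc, Npas4 and Nr4a1. Class IIa histone deacetylases, Hdac4 and Hdac5 among them, shuttle between nucleus and cytoplasm with calcium signals and repress MEF2 targets. The title of the series names basal NMDA receptor activity, neuronal survival and Hdac4.

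The markers of neurons were high on all 9 arrays. The mean log2 ratio of 14 pan-neuronal markers was 4.64 ± 0.14 (SD, n = 4) with NVP and 4.47 ± 0.16 (SD, n = 5) with vehicle, far above the reference RNA. Astrocyte markers were high too, at a mean of 3.74 ± 0.51 and 3.60 ± 0.39, so the cultures were mixed. The array labelled NVP 4 stood at 3.00 in this mean and vehicle 3 at 2.93, whereas the other 7 arrays stood between 3.64 and 4.15. In the groups outside this comparison, AP5 5 was lowest at 3.03 and Ro25 3 at 2.82. Gfap, the filament protein of astrocytes, read 3.27 on NVP 4 and 3.24 on vehicle 3, and between 5.04 and 6.26 on the other 7. After removal of each group's mean, NVP 4 and vehicle 3 deviated together, with a correlation of 0.804 across genes, which are not independent replicates. Both arrays are named beside the results they touch. The median red signal of the 9 arrays ran from 135.5 to 177.8, with red well above background for 25708 to 28531 of 41174 probes and no saturated spot. No slide held arrays of both groups: NVP arrays lay on slides 2 and 3, vehicle 2 on slide 4 and the other vehicle arrays on slide 5. Slide and treatment cannot be told apart within a slide in this comparison, and the number of arrays limits the precision.

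No gene passed the test for a difference between NVP and vehicle. Of 19206 genes tested, 0 (0%) had a limma adjusted p under 0.05, and the smallest adjusted p was 0.240. At an unadjusted p under 0.05 there were 1591 genes (8.28%), of which 913 were higher (4.75%) and 678 lower (3.53%) with NVP. AP5, read against the same vehicle arrays, gave 3462 called genes (18%), and Ro25 gave 0, with 1182 genes (6.15%) at an unadjusted p under 0.05. AP5 1 to 4 lay alone on slide 1, and in the green channel, the same reference RNA on every array, 1070 genes were called between AP5 and vehicle and 0 between NVP and vehicle. The part of this difference in the AP5 values was not tested. The count for NVP was 0 in 22 of 24 alternative fits, single arrays left out included, and the exceptions were array quality weights, with 12 genes, and the fit without vehicle 2, with 4. Among those 4 were Rtn1, Scg3 and Mmd2, at log2 fold changes of 0.54, 0.47 and 0.41 without vehicle 2 and of 0.45, 0.41 and 0.33 with it.

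In the main fit, which has no slide term, the intervals were narrow enough to bound most genes. Standard errors of the log2 fold change had a median of 0.08, and 95% confidence intervals (CI) reached a median of 0.17 to each side. Over the alternatives the median standard error ran from 0.07 with an astrocyte covariate to 0.17 with slide as a fixed block. It was 0.12 with the deposited Agilent ratio. The shares that follow are for the main fit only. For 18558 genes (96.63%) the whole interval lay within 1.5-fold either way, and for 19152 genes (99.72%) it lay within 2-fold. The same share within 1.5-fold was 90.87% for AP5 and 97.77% for Ro25. The median size of the NVP log2 fold change was 0.06, beside 0.11 for AP5 and 0.05 for Ro25. The estimates for NVP ran from -0.80, for a gene not well above background on any NVP array, to 0.51, whereas those for AP5 ran from -1.79 (Bdnf) to 2.06 (Icosl).

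Estimates past 1.5-fold were found in 1 direction, and 5 of 7 had vehicle 4 as their highest vehicle array. They were genes or transcripts lower with NVP, of which Olfr633 (an olfactory receptor gene), Htr1f (a serotonin receptor gene) and 4933406C10Rik bear an official symbol. No interval lay wholly past 1.5-fold. Olfr633 read between 0.05 and 0.13 on the 4 NVP arrays, and on the vehicle arrays 0.06, 0.50, 0.18, 2.85 and 0.84, with vehicle 4 far above the rest. Htr1f showed the same picture, with 0.18 to 0.25 on NVP arrays and 2.40 on vehicle 4 against 0.22 to 0.73 on the other vehicle arrays. Olfr633 was not well above background on any NVP array, nor were 2 other transcripts of the 7, and no fold change is given for these. Without vehicle 4, the log2 fold change of Htr1f went from -0.59 to -0.19. The unnamed transcript TC1624594 did not rest on that array, with -0.62 for all arrays and -0.64 without vehicle 4. These genes were singled out after their values were seen.

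No activity-dependent transcription factor passed the test with NVP. Of 28 immediate early genes, 21 had a log2 fold change below 0 and 7 above, where 55.86% of all genes tested were above 0. Their median was -0.11, beside 0.01 over all genes tested and -0.04 for all genes of like ratio to the reference. At an unadjusted p under 0.05 there were 5 lower and 1 higher, beside 3.53% lower and 4.75% higher over all genes, and 21 of the 28 intervals lay within 1.5-fold. The list's median was also below 0 in each alternative but the division of all arrays to a common median log ratio, where it was 0.16. With the astrocyte marker mean as a covariate it was -0.04, and leaving out single arrays gave -0.15 to -0.03, with -0.03 without vehicle 3, -0.04 without NVP 3 and -0.05 without NVP 1. For AP5 the same list held 14 called lower and 4 called higher, where 18% of all genes were called.

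Nr4a1, an orphan nuclear receptor induced by calcium, had the smallest p in the list. It read -1.24, -1.30, -1.40 and -1.14 on the NVP arrays and -1.25, -1.01, -0.71, -1.06 and -1.03 on the vehicle arrays. NVP 2 and NVP 3 lay below every vehicle array, and the other two NVP arrays lay between vehicle 1 and the other 4 vehicle arrays. The log2 fold change was -0.26 (95% CI -0.45 to -0.07, limma adjusted p = 0.390). Its change with AP5 was -1.45 and with Ro25 -0.41. The direct difference of NVP from AP5 was 1.19 (limma adjusted p = 2.78e-07), at unmatched doses.

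Npas4, a neuron-specific transcription factor that recruits inhibitory synapses, read 0.82, 1.18, 0.71 and 0.98 with NVP and 0.89, 1.18, 1.69, 1.10 and 1.39 with vehicle. The ranges overlapped, and vehicle 3 was the highest array. The log2 fold change was -0.33 (95% CI -0.61 to -0.04, limma adjusted p = 0.509) and -0.22 without vehicle 3. It was -1.33 with AP5 and -0.70 with Ro25. Fos, the partner of Jun proteins in the AP-1 factor, was between -2.59 and -2.49 on NVP 1 to 3 but -3.17 on NVP 4, beside -2.77 to -2.27 with vehicle. Its log2 fold change of -0.18 (95% CI -0.58 to 0.22) became -0.02 without NVP 4. Egr4 at 0.18 and Egr1 at -0.06, zinc-finger factors of the same family, had intervals that spanned 0.

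Promoters of 3 of these genes are shown because their genes are standard readouts of CREB and differed between the NVP and AP5 arrays. Each line holds the 250 bases before the RefSeq start site in GRCm38.p6, 5′ to 3′, with the core of the CREB site (TGACG, or CGTCA on the other strand) in capitals. The windows are chr15:101266596-101266845 (+ strand) for Nr4a1, chr19:4989972-4990221 (- strand) for Npas4 and chr12:85473640-85473889 (+ strand) for Fos.
Nr4a1: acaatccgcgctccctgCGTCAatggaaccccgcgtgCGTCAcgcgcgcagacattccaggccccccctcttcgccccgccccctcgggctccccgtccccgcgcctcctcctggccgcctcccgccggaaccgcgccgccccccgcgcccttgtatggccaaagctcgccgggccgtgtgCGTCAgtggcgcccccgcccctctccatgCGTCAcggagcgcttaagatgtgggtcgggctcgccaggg
Npas4: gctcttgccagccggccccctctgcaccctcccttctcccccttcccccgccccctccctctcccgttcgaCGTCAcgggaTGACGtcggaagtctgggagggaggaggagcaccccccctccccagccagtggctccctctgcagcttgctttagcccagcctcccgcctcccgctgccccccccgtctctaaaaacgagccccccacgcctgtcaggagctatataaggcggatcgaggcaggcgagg
Fos: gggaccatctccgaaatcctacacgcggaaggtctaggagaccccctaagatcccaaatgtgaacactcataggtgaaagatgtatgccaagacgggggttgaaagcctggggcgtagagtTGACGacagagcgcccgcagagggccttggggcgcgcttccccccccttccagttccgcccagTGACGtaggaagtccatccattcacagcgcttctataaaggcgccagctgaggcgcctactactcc
Nr4a1 held 4 matches, and Npas4 and Fos held 2 each. Of 32851 windows of this length in the RefSeq promoter table, 17.8% held at least 1 match to the core and 1.55% the full site TGACGTCA, which none of the 3 had. A match to these letters is a description of the sequence and not evidence of binding. Of 13 genes looked up, 10 matched a window of the table, and 6 of those 10 had a core match in at least 1 window. Hdac4 and Grin1, whose windows are not shown, held 2 matches each, as many as Npas4 and Fos. The windows of Bdnf, at several start sites, held 1 match in all, and those of Dusp6, Ptgs2, Hdac5 and Icosl held none.

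**Figure D1:**
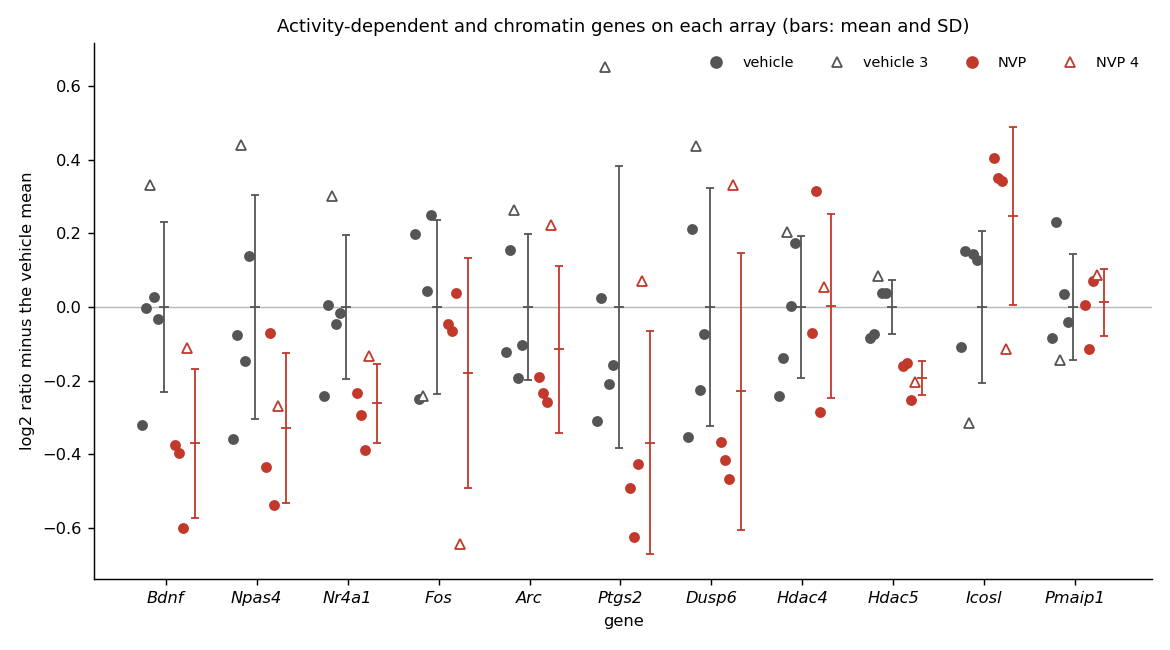
Log2 ratio of 11 genes on each vehicle (grey) and NVP (red) array, minus the vehicle mean of that gene, with the mean and SD of each group as bars and the astrocyte-poor arrays vehicle 3 and NVP 4 as open triangles. For Bdnf the NVP mean lay 0.37 below vehicle with overlapping arrays, and for Hdac5 all 4 NVP arrays lay below all 5 vehicle arrays.

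Of 26 later activity genes tested, 19 were below 0, with a median of -0.06 beside 0.05 for all genes of like ratio to the reference, and 0 were called. Bdnf, the neurotrophin that supports synapses and survival, read 2.08, 2.06, 1.86 and 2.35 with NVP and 2.14, 2.45, 2.79, 2.48 and 2.42 with vehicle. NVP 1, NVP 2 and NVP 3 were below every vehicle array, and NVP 4 lay inside the vehicle range. The log2 fold change was -0.37 (95% CI -0.67 to -0.07, limma adjusted p = 0.471), and a second probe of Bdnf gave -0.30. With single arrays left out, the log2 fold change ran from -0.46 (without NVP 4) to -0.29. AP5 gave -1.79 and Ro25 -0.21, and NVP differed from AP5 by 1.42 (limma adjusted p = 4.23e-06).

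Ptgs2, the inducible cyclooxygenase of prostaglandin synthesis, read -1.61, -1.74, -1.55 and -1.05 with NVP and -1.43, -1.10, -0.47, -1.33 and -1.28 with vehicle. NVP 4 was the highest NVP array and vehicle 3 the highest vehicle array. The log2 fold change was -0.37 (95% CI -0.72 to -0.02, limma adjusted p = 0.564), with -0.51 without NVP 4 and -0.21 without vehicle 3. A second probe gave -0.36. Arc, which removes AMPA receptors from synapses, read 2.36 to 2.42 on NVP 1 to 3 and 2.84 on NVP 4, with vehicle between 2.42 and 2.88. The estimated log2 fold change was -0.12 (95% CI -0.42 to 0.19). With single arrays left out it ran from -0.23 (without NVP 4) to -0.05. Kcna1, a potassium channel placed in this list, was the highest of the 7 members above 0, at 0.35 (95% CI 0.10 to 0.60, limma adjusted p = 0.397). The list's median was -0.03 without NVP 3, -0.04 without NVP 2, -0.01 without vehicle 3, -0.09 without vehicle 1 and -0.12 without NVP 4.

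Of 10 regulators that feed back on ERK, 8 had values below 0, with a median of -0.04 and no member at an unadjusted p under 0.05. Dusp6, the phosphatase that shuts off ERK, read -0.06, -0.10, -0.15 and 0.64 with NVP and -0.04, 0.52, 0.75, 0.09 and 0.24 with vehicle. NVP 1 to 3 lay below every vehicle array, whereas NVP 4 was near the top of the vehicle range. The log2 fold change was -0.23 (95% CI -0.63 to 0.17), beside -1.51 with AP5. With single arrays left out the NVP value ran from -0.42 (without NVP 4) to -0.12. Etv5, an ETS factor downstream of ERK, was -0.12 (95% CI -0.27 to 0.03), with -0.03 at a second probe. Spry2, a receptor kinase inhibitor, was the lowest member at -0.26 (95% CI -0.61 to 0.08).

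NVP 4 was the highest NVP array for Bdnf, Arc, Ptgs2, Dusp6 and Nr4a1, and vehicle 3 was the highest vehicle array for the same 5 genes. Both were also the arrays lowest in astrocyte markers. With the astrocyte marker mean as a covariate, the log2 fold change was -0.31 for Bdnf, -0.24 for Nr4a1, -0.30 for Ptgs2, -0.16 for Dusp6 and -0.06 for Arc. Without the astrocyte-poorest array of each group, it was -0.37 for Bdnf, -0.23 for Nr4a1, -0.35 for Ptgs2, -0.31 for Dusp6 and -0.16 for Arc, and none was called either way.

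Hdac5, which represses MEF2 targets in the nucleus, read 0.60, 0.61, 0.51 and 0.56 with NVP and 0.68, 0.69, 0.85, 0.80 and 0.80 with vehicle, so the groups did not overlap. The log2 fold change was -0.19 (95% CI -0.30 to -0.09, limma adjusted p = 0.302). It was -0.57 with AP5 and -0.08 with Ro25, and NVP differed from AP5 by 0.38 (limma adjusted p = 8.29e-05). Hdac4 read 0.33, 0.71, 0.12 and 0.45 with NVP and 0.16, 0.26, 0.60, 0.40 and 0.57 with vehicle, with full overlap. Its log2 fold change was 0.00 (95% CI -0.27 to 0.28), beside 0.46 with AP5, and the difference from AP5 of -0.46 did not pass (limma adjusted p = 0.0541). Among 15 deacetylases and MEF2 factors the median was -0.03, with 8 below 0 and 14 intervals within 1.5-fold. Mef2a, a MEF2 factor of neurons, was the lowest at -0.23 (95% CI -0.41 to -0.04).

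Genes tied to survival and death were not called with NVP, in either direction. Icosl, a costimulatory ligand with the largest rise after AP5, read 0.59, 0.54, 0.53 and 0.07 with NVP and 0.08, 0.34, -0.13, 0.33 and 0.31 with vehicle. The estimated log2 fold change was 0.25 (95% CI 0.01 to 0.48), beside 2.06 with AP5. With single arrays left out the NVP value ran from 0.17 to 0.37 (without NVP 4). Pmaip1, a death-promoting BH3 protein, stood at 0.01 (95% CI -0.17 to 0.20) with NVP and at 1.08 with AP5. Of 21 pro-apoptotic genes 11 were below 0, their median was 0.00, and all 21 intervals lay within 1.5-fold. Dapk1, a death-associated kinase, was the highest at 0.29 (95% CI 0.04 to 0.54). The 8 anti-apoptotic genes had a median of -0.03, with Birc3 lowest at -0.18, and their 8 intervals lay within 1.5-fold. Nuclear-calcium survival genes had 7 of 9 members below 0 and a median of -0.08, which was -0.04 without vehicle 3, -0.12 without vehicle 4 and -0.17 without NVP 4. FOXO pathway genes had a median of 0.03, beside 0.26 with AP5.

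**Figure D2:**
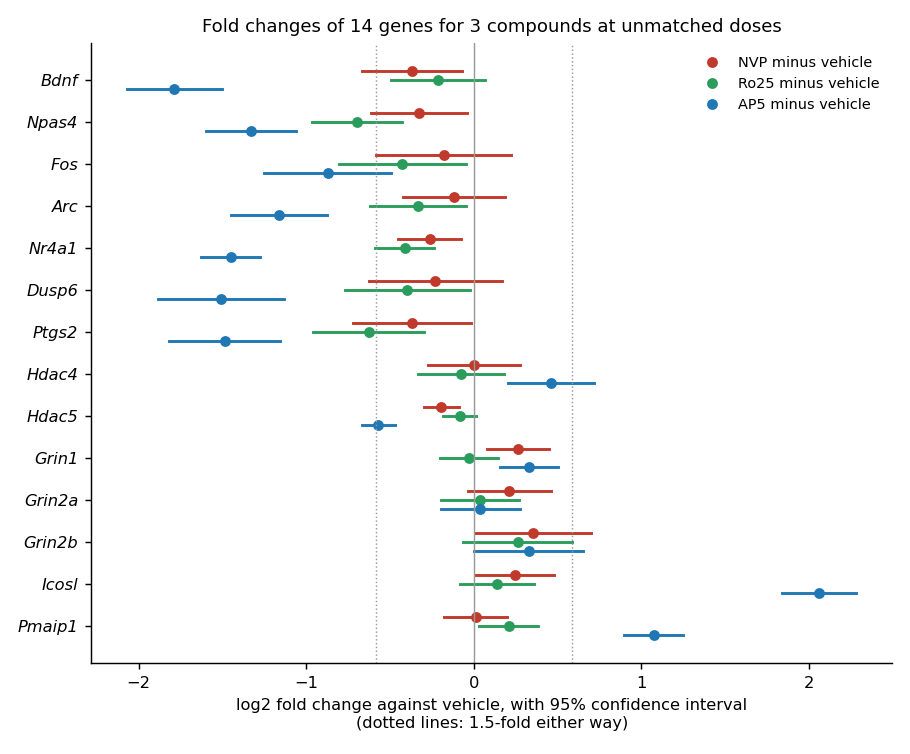
Log2 fold change against vehicle with its 95% confidence interval for 14 genes, with NVP in red, Ro25 in green and AP5 in blue, and dotted lines at 1.5-fold. NVP estimates ran from -0.37 for Bdnf to 0.36 for Grin2b, whereas AP5 reached -1.79 for Bdnf and 2.06 for Icosl; doses were not matched, and the comparisons share the vehicle arrays.

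All 7 NMDA receptor subunit genes were above 0 with NVP, none past the test. Grin1, which encodes the obligatory subunit, read 1.35, 1.07, 1.13 and 1.03 with NVP and 0.73, 0.78, 1.01, 1.00 and 0.87 with vehicle, without overlap. Its log2 fold change was 0.27 (95% CI 0.08 to 0.45, limma adjusted p = 0.375), and the estimate was -0.08 in the red channel alone. Grin2b read 2.32, 2.55, 1.87 and 1.74 with NVP and 1.56, 1.80, 1.72, 1.85 and 1.90 with vehicle, so NVP 1 and NVP 2 stood above the rest. The estimated log2 fold change was 0.36 (95% CI 0.01 to 0.70), and 4 further probes of the gene gave -0.05 to 0.22. Grin2a, the gene of the subunit that NVP prefers, read 1.04, 1.10, 0.74 and 0.76 with NVP and 0.57 to 0.89 with vehicle. Its log2 fold change was 0.21 (95% CI -0.04 to 0.46), beside 0.04 with both AP5 and Ro25. Grin1 was at 0.33 with AP5 (limma adjusted p = 0.00907) and at -0.03 with Ro25, and Grin2b at 0.33 and 0.26. The median of the subunits was 0.20 and stood at 0.05 for all genes of like ratio. It was 0.10 in the red channel alone, 0.00 with arrays divided to a common median, 0.11 without vehicle 3 and 0.12 with the astrocyte covariate. The subunits had a median of 0.24 with AP5 and of 0.05 with Ro25, read against the same vehicle arrays.

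Other synaptic genes were above 0 almost throughout. The direction turned with arrays divided to a common median, where the medians of the 7 lists named here ran from -0.75 to -0.29. Of 17 AMPA and kainate receptor genes 17 were above 0, beside 55.86% of all genes tested. Their median was 0.15, from 0.01 for Grik5 to 0.27 for Gria4, both receptor subunits. Cacng4, an AMPA receptor auxiliary subunit with the smallest p of this list, was at 0.21 (95% CI 0.09 to 0.33). All 12 GABA-A receptor subunits were above 0 (median 0.17), as were all 6 metabotropic glutamate receptors (median 0.15). Presynaptic release genes were above 0 in 21 of 22 members, with a median of 0.19. Syt1, the calcium sensor of vesicle release, read 7.10, 7.25, 7.07 and 7.02 with NVP and 6.75 to 6.91 with vehicle, with no overlap and a log2 fold change of 0.30 (95% CI 0.14 to 0.47, limma adjusted p = 0.302). Postsynaptic scaffold genes had a median of 0.16, with Homer2 at 0.27, and voltage-gated channels a median of 0.15, with Scn2a at 0.26. Other probes gave 0.17 to 0.24 for Homer2 and 0.04 to 0.16 for Scn2a. Neuropeptides had a median of 0.17, with Sst, somatostatin, at 0.22. At an unadjusted p under 0.05 there were 8 of 22 presynaptic and 5 of 17 AMPA and kainate genes, all higher, beside 4.75% higher over all genes.

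The values above 0 went with how far a gene stood above the reference RNA. When genes were binned by their mean ratio on the AP5 and Ro25 arrays, which this comparison does not use, the median log2 fold change of NVP against vehicle was larger in each higher bin. It was -0.10 for 555 genes with a log2 ratio under -3, -0.01 for 4483 genes between -1 and 0, 0.14 for 545 genes between 3 and 4, and 0.18 for 553 genes over 4. From the lowest to the highest bin, the median also went from -0.17 to 0.32 with AP5 and from -0.12 to 0.15 with Ro25. The bins were formed from those same AP5 and Ro25 arrays, so part of that rise can follow from how the bins were made. The comparisons also share the vehicle arrays. Presynaptic genes had medians of 0.28 with AP5 and 0.10 with Ro25, and GABA-A subunits 0.27 and 0.13. Neuronal genes sit at the upper end of this scale. The median of all genes of like ratio was 0.14 for the AMPA and kainate genes, 0.18 for the GABA-A subunits and 0.16 for the presynaptic genes, close to the lists' own medians. Subtracting each gene's bin median left 0.04, 0.03 and 0.05 for these lists and 0.19 for the NMDA receptor subunits. In the red channel alone, quantile normalized and without the reference, the median of the 1098 genes with a ratio over 3 went from 0.16 to 0.0002. There the medians of the AMPA and kainate, presynaptic and postsynaptic lists were -0.01, -0.001 and -0.01. Quantile normalization gives every array the same distribution of signals, so it can itself remove a shift shared by bright genes. With all arrays divided to a common median the median of the 1098 genes was -0.67, and with slide as a fixed block it was -0.05. That division sets no common spread. Array medians lay near 0, at 0.03 to 0.05 over the probes with values in the authors' processed data, so small differences between them give large factors. Among the synaptic lists, the fixed slide block gave -0.02 for postsynaptic genes, -0.03 for neuropeptides, 0.003 for AMPA and kainate genes and 0.07 for presynaptic genes. Single arrays set some of these medians: without vehicle 1 it was 0.09 for postsynaptic genes, without vehicle 5 it was 0.11 for GABA-A subunits and for neuropeptides, and without NVP 4 it was 0.06 for neuropeptides. The spread of log ratios on an array, as median absolute deviation, was 1.05 ± 0.03 (SD, n = 4) with NVP and 1.00 ± 0.05 (SD, n = 5) with vehicle. The part of this spread in the synaptic values was not tested.

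**Figure D3:**
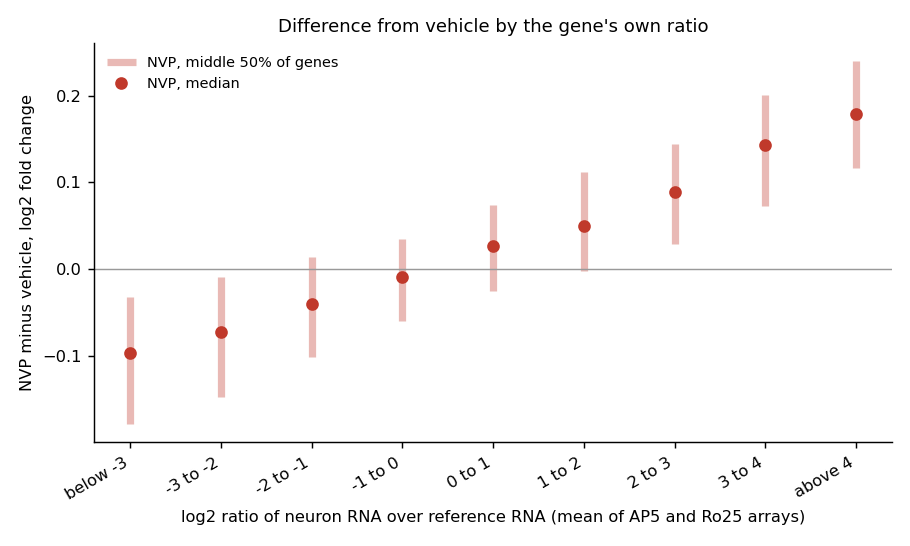
Median (points) and middle 50% of genes (bars) of the NVP minus vehicle log2 fold change, by the gene's mean log2 ratio over the reference on AP5 and Ro25 arrays. The median went from -0.10 in the lowest bin to 0.18 in the highest.

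Genes whose arrays did not overlap numbered 485 of 18373 genes measured on all 9 arrays (2.64%). With NVP, 283 were higher (1.54%) and 202 lower (1.1%). The higher genes differed by 0.03 to 0.48 on the log2 scale (median 0.18), and the sizes of the lower ones ran from 0.05 to 0.62 (median 0.20). Of the 283 higher genes 251 had a ratio above the reference, and of the 202 lower genes 35 did. Genes tested are unevenly spread over this scale. By the ratio bins above, 7048 genes between 0 and 1 held 151 higher and 33 lower, and 4483 genes between -1 and 0 held 29 and 68. The 553 genes over 4 held 29 higher and 0 lower, and the 555 genes under -3 held 0 and 27. The share that was higher was 58.4%, but it was 33.8% in the red channel alone, 42.1% with a common median, 48.1% with no filter on dim probes and 70.2% with the deposited Agilent ratio. The number itself ranged from 254 to 1839 over the alternatives, in which 14769 to 26434 genes could be judged. It was 597 to 1153 with single arrays left out, where fewer arrays make separation easier by construction.

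Among non-overlapping higher genes, 11 of the 12 of smallest p are described, and they differed by 0.22 to 0.45 with limma adjusted p from 0.240 to 0.302. Scg3, a granin of dense-core vesicles, read 4.98 to 5.12 with NVP and 4.50 to 4.91 with vehicle, of which vehicle 2 was the highest, at a probe at chr9:75429422-75429481 (mm8). The estimated log2 fold change was 0.41 (95% CI 0.24 to 0.57) and -0.03 in the red channel alone. Rtn1, a reticulon of the neuronal endoplasmic reticulum, read 5.23 to 5.33 with NVP, 5.21 on vehicle 2 and 4.56 to 4.81 on the other vehicle arrays. Its log2 fold change of 0.45 (95% CI 0.26 to 0.64) came with 0.27 at a second probe, and turned to -0.02 in the red channel alone. Against the same vehicle arrays, Scg3 was at 0.564 with AP5 and 0.316 with Ro25, and Rtn1 at 0.565 and 0.38.

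Among these 11 genes, 3 were receptors for transmitters or peptides: Adra2c, an adrenergic receptor, at 0.37, Htr4, a serotonin receptor, at 0.24 and Npbwr1, a neuropeptide receptor, at 0.24. Adra2c read 3.67 to 3.86 with NVP and 3.31 to 3.46 with vehicle, well above background on all 9 arrays. Htr4 was well above background on 3 of 4 NVP arrays and 1 of 5 vehicle arrays, so its level there is close to the limit of the array. The remaining genes described were Wscd1 at 0.34, Rprm, a cell-cycle inhibitor, at 0.28, Akr1cl, well above background on 3 of 4 NVP arrays and 1 of 5 vehicle arrays, at 0.27, BC024139 at 0.25, Wnk2, a kinase of ion transport, at 0.24 and Crybb3, a crystallin, at 0.22. Crybb3 had the tightest NVP arrays, at 0.76 to 0.80, beside 0.50 to 0.67 with vehicle. Wscd1 was 4.53 to 4.63 with NVP and 4.12 to 4.40 with vehicle, and it was lower than with AP5 by -0.32 (limma adjusted p = 0.00499). Against vehicle, Wscd1 was at 0.66 with AP5 and 0.30 with Ro25, Adra2c at 0.37 and 0.23, and Crybb3 at 0.23 and 0.02.

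The 12 lower genes of smallest p had sizes of 0.22 to 0.52, all with a ratio below the reference. Inpp5d, an inositol phosphatase of blood cells and microglia, read -3.52, -3.48, -3.47 and -3.22 with NVP and -2.93, -3.00, -2.67, -3.18 and -2.75 with vehicle. The estimated log2 fold change was -0.52 (95% CI -0.77 to -0.27, limma adjusted p = 0.302), beside -0.77 with AP5 and -0.33 with Ro25. Igkv4-57-1, an immunoglobulin light chain segment, was at -0.50, Lat2, an adaptor of antigen receptors, at -0.44 and Ly75, an endocytic receptor of dendritic cells, at -0.22. Lat2 was well above background on 2 NVP and 3 vehicle arrays, and second probes of Igkv4-57-1 and Lat2 gave -0.08 and -0.06. Epha1, an ephrin receptor, stood at -0.41, Olfr978 at -0.39, Rasa4, which inactivates Ras, at -0.37, Foxs1 at -0.29, Hoxc13, a homeobox factor, and Fam178b at -0.28 each and A930033H14Rik at -0.25. Olfr978 had NVP arrays from -0.97 to -0.86 and vehicle arrays from -0.61 to -0.45. Hoxc13 was well above background on 1 of 4 NVP arrays and 4 of 5 vehicle arrays, and Fam178b on 2 of 4 and 5 of 5, with its other probes at -0.03 and -0.01. Large2, a glycosyltransferase, was well above background on none of the NVP arrays and on 4 of 5 vehicle arrays, and a second probe gave 0.07. Ly75 was 0.16 with the deposited Agilent ratio, where its direction turned.

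**Figure D4:**
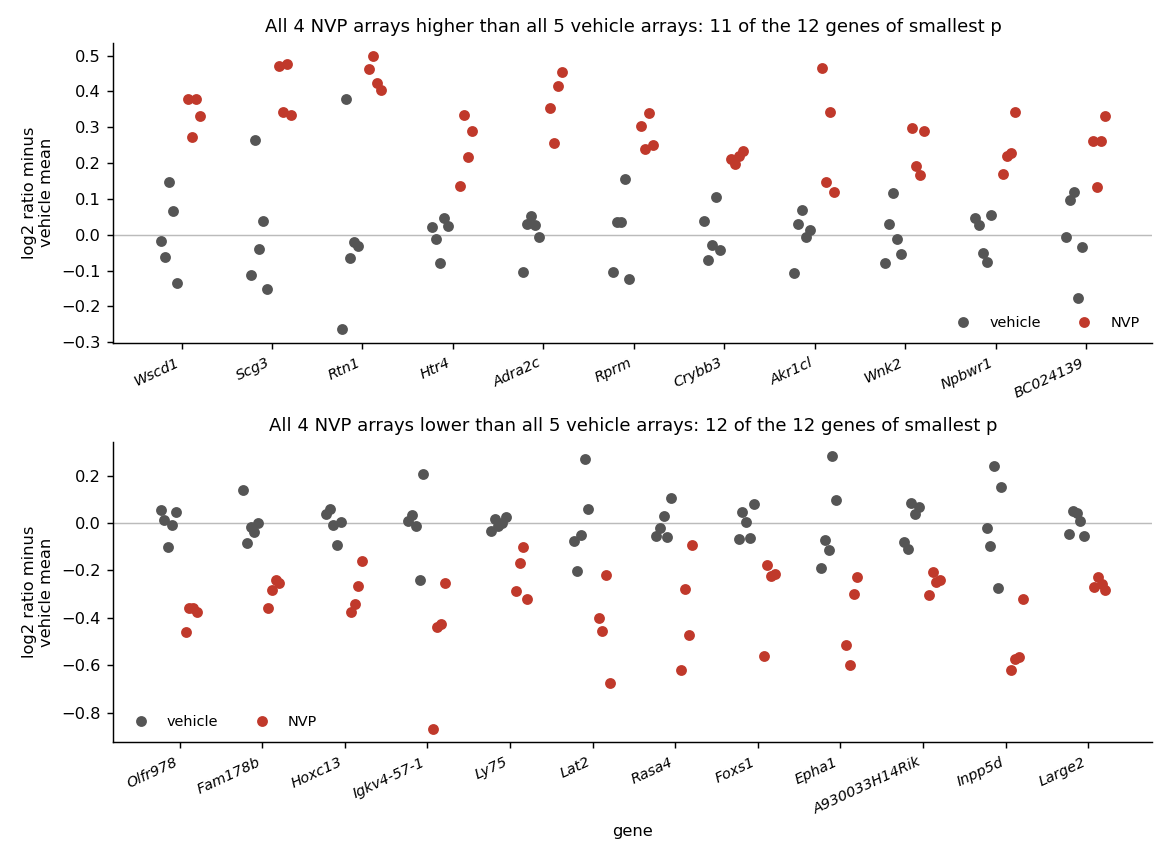
Log2 ratio on each vehicle (grey) and NVP (red) array, minus the vehicle mean, for 11 of the 12 higher and all 12 lower genes of smallest p among those without overlap. The groups are apart for each gene by choice of the genes, and the mean differences are 0.22 to 0.45 above and 0.22 to 0.52 below vehicle.

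No marker of a cell class was called. The 17 astrocyte markers had a median of 0.19 with 15 above 0, and 6 of their intervals lay within 1.5-fold, with NVP 4 and vehicle 3 far below the other arrays. This median was -0.02 without vehicle 3, 0.03 without NVP 3, 0.06 without NVP 1, 0.09 without NVP 2, 0.36 without NVP 4 and -0.42 with slide as a fixed block. Gfap was 0.24 with an interval from -1.30 to 1.77. Slc1a2, a glutamate transporter of astrocytes, did not overlap, from 8.46 to 8.69 with NVP and 8.11 to 8.39 with vehicle, a log2 fold change of 0.30 (95% CI 0.13 to 0.48). Excitatory markers had a median of 0.18, with Calb1, a calcium buffer of granule cells, at 0.21, and interneuron markers 0.19, with Gad2, a GABA-synthesising enzyme, at 0.29 (95% CI 0.08 to 0.49). The interneuron median was 0.12 without vehicle 1. Pan-neuronal markers had a median of 0.16 beside 0.18 for all genes of like ratio, with 7 of 14 higher at an unadjusted p under 0.05 beside 4.75% over all genes. In the red channel alone these medians were 0.08 for astrocyte, 0.04 for excitatory, -0.03 for interneuron and -0.03 for pan-neuronal markers. Microglia markers were below 0 in 10 of 11 members with a median of -0.10, beside -0.04 for all genes of like ratio. They were led by Fcer1g, an Fc receptor chain, at -0.34 (95% CI -0.53 to -0.14), with a second probe at -0.12. Their median was 0.38 with arrays divided to a common median and -0.16 without NVP 4. Oligodendrocyte markers had a median of 0.09 (-0.04 without NVP 3 and 0.04 without vehicle 3), endothelial and mural markers 0.06, fibroblast markers -0.01 and proliferation markers 0.01. Among them Sox10 was 0.36 with an interval from -0.04 to 0.76, and 0.06 at a second probe. Col1a1 was -0.14, and -0.09 at a second probe. Kdr, a VEGF receptor, was 0.41 (95% CI 0.11 to 0.71) without overlap, beside 1.28 with AP5. In bulk RNA, fewer cells of a type and less RNA per cell cannot be told apart.

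**Figure D5:**
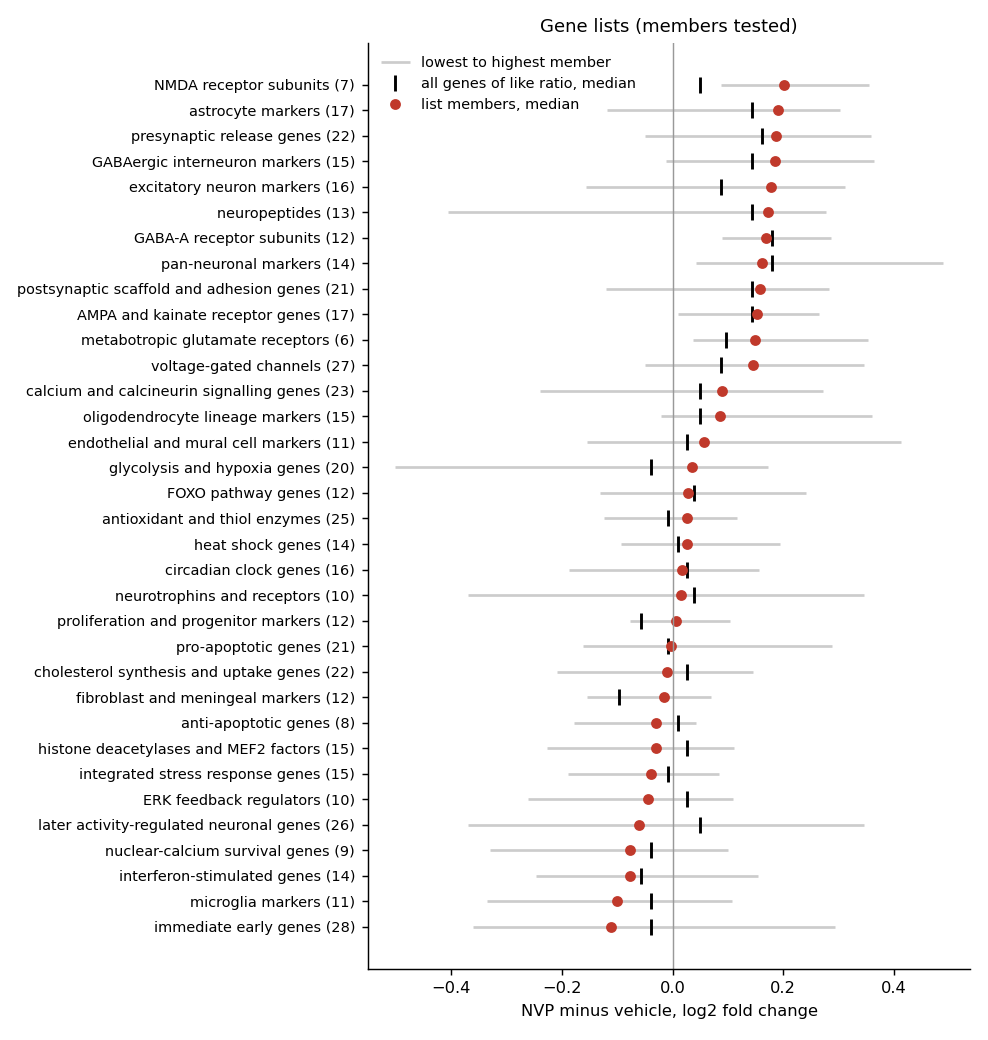
NVP minus vehicle log2 fold change of 34 gene lists, with the median of the members tested (red points), the median of all genes of like ratio (black ticks) and the lowest and highest member (grey lines). Immediate early genes were lowest at -0.11 and NMDA receptor subunits highest at 0.20, and no member of any list passed the test.

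Antioxidant genes, heat shock genes and glycolysis and hypoxia genes had medians of 0.03, 0.03 and 0.04, the integrated stress response -0.04, circadian genes 0.02 and cholesterol genes -0.01. All 22 intervals of the cholesterol list and all 16 of the circadian list lay within 1.5-fold. Car9, a carbonic anhydrase induced by hypoxia, was the lowest member of these lists at -0.50 (95% CI -0.80 to -0.20, limma adjusted p = 0.345). It read -2.15, -1.69, -2.11 and -1.47 with NVP and -1.52 to -1.24 with vehicle, so NVP 4 lay in the vehicle range. Cry2, a clock repressor, was -0.14 and Trib3, a stress-induced pseudokinase, -0.15. A second probe gave 0.055 for Cry2, where the direction turned, and -0.1 for Trib3. Hspa1b, an inducible chaperone, was 0.19, Sod1 0.09 and Hsd17b7, an enzyme of sterol synthesis, 0.15. A second probe of Hsd17b7 gave -0.09, and other probes of Sod1 gave 0 to 0.06. Interferon-stimulated genes had a median of -0.08 that turned to 0.07 with the deposited Agilent ratio and 0.09 in the red channel alone, with Irf7 at -0.19. Their median was -0.015 without NVP 4, -0.03 without vehicle 5, -0.04 without NVP 2, -0.14 without vehicle 3 and -0.15 without NVP 3. Neurotrophins and their receptors had a median of 0.02, with Ntf5 at -0.19 and without overlap. Calcium and calcineurin genes had a median of 0.09 (0.03 without NVP 2, 0.04 without NVP 1, 0.05 without vehicle 1, 0.06 without vehicle 2), with Camk2b, a subunit of the synaptic calcium kinase, at 0.20, and -0.02 in the red channel alone. Foxo6 of the FOXO list was 0.24.

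The NVP arrays also differed from the AP5 arrays directly. In the same model 814 genes (4.24%) were called between them, 261 higher (1.36%) and 553 lower (2.88%) with NVP, at doses that were not matched. Dusp6 was higher with NVP than with AP5 by 1.28, Ptgs2 by 1.12, Arc by 1.05, Npas4 by 1.00, Fos by 0.69 and Etv5 by 0.35, and each passed. Icosl was lower by -1.82, Pmaip1 by -1.06 and Kdr by -0.87, which also passed. Of the immediate early genes 8 were called higher and 4 lower with NVP than with AP5, and of the ERK feedback regulators 5 higher. The count was 518 with only these groups in the fit and 190 with slide as a fixed block. Against Ro25, 0 genes were called, with 300 (1.56%) at an unadjusted p under 0.05. A p that misses the threshold does not show that the compounds act alike. NVP minus Ro25 was 0.37 for Npas4 (95% CI 0.08 to 0.66), 0.15 for Nr4a1 (95% CI -0.04 to 0.34) and -0.16 for Bdnf (95% CI -0.46 to 0.14).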

How the data were processed

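Each scanner file gives the mean and background intensity of every spot in both channels, and a log10 ratio of red over green as deposited. The file headers name version 9.5.3.1 of the extraction software with protocol GE2-v5_95_Feb07, whereas Agilent Feature Extraction 11.0 stands in the submitters' processing notes. Background subtraction and a linear and lowess dye correction are already part of the deposited log10 ratio, per the file headers. The authors' table holds log2 values for 20674 probes, which correlated at 0.9986 to 0.9998 with the ratios computed here (slopes 0.9891 to 1.007). That shows its scale and direction to be log2 of red over green, with column medians of 0.0345 to 0.0478, and how it was centred remains unknown.

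Mean intensities were corrected with normexp (offset 50) and loess within arrays in limma 3.58.1, R 4.3.3, with control spots at weight 0. Marked outlier spots were dropped (117 to 266 on each array but vehicle 5, which had 1642). A probe needed red well above background on 4 or more of 19 arrays, which 28653 of 41174 met, and the brightest such probe stood for a gene. RefSeq genes of GRCm38.p6 named 23374 probes by accession, 6733 by symbol and 2919 by synonym, and 8148 kept the file's name. Of 19206 genes, 6729 had more than 1 kept probe. One limma model over all 19 arrays gave two-sided p-values, adjusted by Benjamini-Hochberg over all genes with a threshold of 0.05. The fit was tested on simulated data. No pair of arrays shared more than 0.0161% of red signals.

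The comparison, the gene lists and the rule for named genes were chosen with earlier results of these data known. The rule took 12 non-overlapping genes each way with an official symbol, the smallest p and values on all 9 arrays, the member of each list with the smallest p, and 14 genes of NMDA receptor signalling. Of the genes so chosen, 2 are not reported here. Other genes, such as the lowest or highest of a list, Gfap, Egr1, Egr4 and Mmd2, were chosen after their values were seen. Alternatives covered background, the deposited ratios, scaling, 1 channel, filters, blocks, weights, a covariate and arrays left out. The scaling divided the log ratios of each array to a common median. Fits of 1 channel used quantile normalization over all arrays.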

Additional observations from a re-analysis of the deposited data

Results flagged for a closer look

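Of 204 groups of arrays examined, 16 held 1 array far from its neighbours, where chance gives about 5%. NVP 4 stood apart in 4 genes, at a log2 ratio of -3.166 for Fos against -2.587 on the nearest NVP array, 2.837 for Arc against 2.424, 0.642 for Dusp6 against -0.055 and 0.072 for Icosl against 0.529. It was also apart in the mean of the circadian clock genes, at -0.038 against 0.064. NVP 3 was apart in the mean of the postsynaptic scaffold and adhesion genes, at 2.859 against 2.974. NVP 1 was apart in Olfr978 at -0.966 against -0.879 and in Foxs1 at -1.362 against -1.028, both genes that did not overlap with vehicle.

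Vehicle 3 was apart in the mean of the astrocyte markers, at 2.925 against 3.643, and in the mean of the cholesterol genes, at 0.801 against 0.557. It also stood apart in Birc3 at -3.767 against -3.415 and in Hsd17b7 at 1.353 against 0.929. Vehicle 2 was apart in Camk2b at 4.744 against 4.543 and in Hspa1b at 1.897 against 1.793, where 1 vehicle array was not measured. Vehicle 1 was apart in Homer2, at 3.416 against 3.733. Vehicle 5 had 1642 marked spots, against 266 on the next array.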

How the results depend on the processing

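Of 64 named genes, 26 kept their direction with arrays divided to a common median, 52 with the fixed slide block and 52 in the red channel. No alternative called a gene for NVP against vehicle except array quality weights (12) and leaving out single arrays (0 to 4, the 4 without vehicle 2). Array weights called Wscd1, Scg3, Olfr978, Hoxc13, Igkv4-57-1, Rasa4 and Epha1 among the named genes, with limma adjusted p from 0.0328 to 0.0433. The share of genes at an unadjusted p under 0.05 was 1.92% with normexp fitted to all spots and 24.9% with a common median, against 8.28%. Genes without overlap numbered 485, and 254 with normexp fitted to all spots, 285 with the deposited Agilent ratio, 1839 with a common median, 299 in the red channel alone, 740 with no filter on dim probes, 1482 without the astrocyte-poorest array of each group (an alternative chosen after seeing the data) and 597 to 1153 with single arrays left out. Fewer arrays make separation easier by construction. Genes called between NVP and AP5 numbered 814, and 518 with only those groups, 190 with slide as a fixed block and 530 with the replicate number as a block. That number is a bare label, and whether it pairs the samples is not given. Deviations of same-numbered NVP and vehicle arrays from their group means correlated at 0.322, -0.426, -0.623 and -0.412 across genes. With the replicate block 0 genes were called against vehicle. Other pairs correlated more: NVP 4 and vehicle 3 (0.804), NVP 3 and vehicle 1 (0.588), NVP 1 and vehicle 4 (0.509), and NVP 2 and vehicle 5 (0.41). These pairs were picked by their values. No fit paired in this way was run, and a pairing the labels do not give was not tested. The fixed slide block links NVP to vehicle only through Ro25 arrays and vehicle 2. The consensus correlation within slides was -0.078. In the reference channel, 0 genes were called and 1511 (7.87%) had an unadjusted p under 0.05.

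The division to a common median multiplied all log ratios of an array by a factor set by that array's own small median. Such factors can turn a group difference by arithmetic alone. The cause of the turns in the other settings was not tested. These log2 fold changes turned their sign. With arrays divided to a common median they were Wscd1 -0.593, Scg3 -0.609, Rtn1 -0.617, Adra2c -0.392, Rprm -0.662, Wnk2 -0.252, Igkv4-57-1 0.365, Ly75 0.007, Lat2 0.016, Rasa4 0.381, Inpp5d 0.124, Kcna1 -1.011, Cacng4 -0.064, Gabra5 -0.450, Homer2 -0.550, Syt1 -1.209, Scn2a -0.837, Dapk1 -0.341, Birc3 0.568, Foxo6 -0.471, Trib3 0.801, Hspa1b -0.243, Irf7 0.416, Hsd17b7 -0.054, Ntf5 0.047, Sst -0.491, Camk2b -0.800, Calb1 -0.815, Slc1a2 -1.519, Sox10 -0.231, Fcer1g 0.529, Kdr -0.044, Col1a1 1.213, Mcm5 0.380, Fos 0.353, Hdac4 -0.096, Grin2b -0.049 and Pmaip1 -0.011, and this division took the median of genes with a ratio under -2 from -0.08 to 0.48. In the red channel alone they were Scg3 -0.025, Rtn1 -0.017, Grin1 -0.076, Dapk1 -0.035, Birc3 0.074, Irf7 0.026, Ntf5 0.025, Sst -0.050, Camk2b -0.006, Sox10 -0.016, Hdac4 -0.046 and Pmaip1 -0.032. With slide as a fixed block they were Rtn1 -0.011, A930033H14Rik 0.012, Gabra5 -0.051, Foxo6 -0.010, Sod1 -0.077, Sst -0.027, Camk2b -0.067, Calb1 -0.050, Slc1a2 -0.121, Sox10 -0.100, Icosl -0.070 and Pmaip1 -0.249. With the deposited Agilent ratio they were Ly75 0.162, Birc3 0.038, Hdac4 -0.048 and Pmaip1 -0.016. With the authors' table they were Cry2 0.051 and Pmaip1 -0.015. With the mean of kept probes it was Sod1 -0.012. Hdac4, at 0.003, was -0.0 with slide as a random block and -0.02 with the replicate block. With array weights the turned values were Hdac4 -0.006 and Pmaip1 -0.015. Without the astrocyte-poorest arrays it was Pmaip1 -0.048. With single arrays left out, Hdac4 ran from -0.101 to 0.098 and Pmaip1 from -0.024 to 0.07.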

Other observations

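A few further genes, named after their values were seen, were not called and differed in how much single arrays set the estimate. Uchl1, a ubiquitin hydrolase abundant in neurons, had a log2 fold change of 0.49 (95% CI 0.09 to 0.89), but it was measured on 2 NVP arrays and 3 vehicle arrays. Pdyn, the dynorphin precursor, was at -0.41 (95% CI -1.03 to 0.22), and vehicle 2 read 3.31 where the other measured vehicle arrays read 1.65 to 2.30. Ier3, an early response gene, was at -0.36 (95% CI -0.62 to -0.10), with vehicle arrays from -3.53 to -3.05 and NVP 3 inside that range. Klf2, a Kruppel-like factor, was at 0.29, with an interval from -0.46 to 1.05. Rasl11a, a small GTPase of the Ras family, read -0.53 to -0.38 with NVP and -0.46 to -0.06 with vehicle, a log2 fold change of -0.25 (95% CI -0.44 to -0.06), beside -1.20 with AP5. Foxo1, a transcription factor held in check by survival signalling, was at -0.07 (95% CI -0.33 to 0.19) with NVP and -0.94 with AP5.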
